A study of Mus musculus with 23 samples.

Results

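Of the genes known from pluripotent cells and the early embryo, 10 were followed in whole mouse embryos of day 8.5. They are Pou5f1, Nanog, Sox2, Lin28a, Sall4, Utf1, Dnmt3b, Tdgf1, Zfp42 and Dppa4. The list of members was given by name, and their probes were found by gene symbol in the probe annotation. All 10 were on the array, among 18069 named genes, with 12 of its 36227 probes, since Sall4 and Dnmt3b have 2 probes each. Of these, 10 probes of 8 genes had enough values for the tests, and Nanog and Zfp42 were left untested for low or missing values.

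Pou5f1, Sox2 and Nanog encode the transcription factors at the core of the network that holds embryonic stem cells undifferentiated. The network is active in the inner cell mass and epiblast and is shut down as germ layers form, while some of its genes stay on in derived tissues: Sox2 in the neural plate, Lin28a and Sall4 in many embryonic tissues, and Pou5f1 late in the posterior epiblast and then in primordial germ cells. p53 has been linked to the silencing of Nanog when mouse embryonic stem cells differentiate.

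Part of this network works through short DNA words near its own promoters: POU factors such as Pou5f1 bind an octamer-like word, and Sox factors a shorter one that is often beside it. The letters ATGCAAA, on either strand (TTTGCAT on the other), were found in the 300-base promoter windows of 3 of the 8 member genes with a window in the RefSeq table (GRCm38.p6), namely Nanog, Sox2 and Zfp42. They are in 4.63% of all 32851 windows. The Sox letters ACAATG, or CATTGT on the other strand, are in the windows of Lin28a, Nanog and Pou5f1, and in 12.6% of all windows. The stretches around the octamer letters are shown because they hold the least bright members, Nanog and Zfp42, beside Sox2, at a higher brightness rank. Capitals mark the octamer letters and, in Nanog, the Sox letters next to them, which share no base with them. The match is a description of these windows, not of binding.
Nanog: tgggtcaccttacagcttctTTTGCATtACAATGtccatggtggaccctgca
Sox2: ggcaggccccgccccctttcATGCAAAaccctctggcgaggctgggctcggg
Zfp42: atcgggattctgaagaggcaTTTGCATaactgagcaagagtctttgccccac
The Nanog stretch is chr6:122707394-122707445 on the plus strand, with the octamer letters starting 75 bases before the gene's start. The Sox2 stretch is chr3:34649876-34649927 on the plus strand, 99 bases before the start. The Zfp42 stretch is chr8:43307163-43307214 on the minus strand, 185 bases before the start.

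Matings of p53 heterozygous mice gave the embryos, which stood for 10 minutes in a hot bath at 43 °C or a control bath at 38 °C and were then pooled by genotype. The pools fall into 6 groups: p53 -/- (null), +/- (heterozygous) and +/+ (wildtype) embryos of the hot bath, and null, heterozygous and wildtype embryos of the control bath. Each group has 4 pools, lettered A to D, except null heat, which has 3. RNA of each pool was measured on a CodeLink array, which reads 1 colour, and values are normalized intensities in relative units. The groups are limited as a model in that a pool mixes 3 to 7 whole embryos, the labels give the p53 alleles only as + and -, and the time between bath and collection is not given in the sources used here.

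Control columns hold 7576 to 11666 empty cells each, mostly of dim probes, and heat columns hold none, so an effect of the bath and one of how the arrays were handled cannot be told apart. Some bright probes lack control values too: over the 12 control columns, the blood gene Hba-x has 5 values and the heart gene Myl7 has 9. No named probe carries the symbol Trp53, and the genotypes could not be checked on the targeted gene. Ccng1, a p53 target, was lower in null than in wildtype pools, by a log2 difference of -2.73 ± 0.21 (SE) in the heat bath (limma adjusted p = 8.7e-08) and -1.48 ± 0.19 in the control bath (adjusted p = 0.00048). Not all p53 targets did so. Of 9 tested, 6 were lower in the heat bath, where 0.56% of all probes were called in either direction. In the control bath 2 of the 9 were lower, as were 4.69% of all probes. Markers of heart, blood and vessel differed in brightness. The probes of Actc1 and Hba-x had median percentiles of 99.2 and 99.7 among all probes on the heat arrays. The primitive blood factor gene Gata1 was at 45.9, and of the vessel genes Kdr was at 91.7 and Cdh5 at 14.8.

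The member genes did not share a level. On the 11 heat arrays, which have hardly any missing cells, the brightness of each probe was ranked among all probes of its array. A rank describes the probe and not the number of transcripts, since probes differ in how strongly they bind. The Lin28a probe was at the 98.9th percentile (median; range 98.3 to 99.2), the first Dnmt3b probe at 97.8 (96 to 98.4) and the first Sall4 probe at 95.7 (93.9 to 97.1). Tdgf1 followed at 86 (84.1 to 88.2), Pou5f1 at 74.9 (72.4 to 78.1) and Sox2 at 72.5 (60.8 to 77). The second Sall4 probe had the widest range among the probes above the median of the array, from 45.6 to 77.4 with a median of 73.3. Dppa4 was at 54.1 (48 to 55.5), the second Dnmt3b probe at 44.5 (38.8 to 52.4) and Utf1 at 38.2 (16.1 to 55.2). Nanog was at 36.9 (29.5 to 46.1) and Zfp42 at 14.2 (5.41 to 20.6). In whole embryos, fewer cells of a type and less RNA per cell cannot be told apart, so a middle rank may be a few cells with much RNA or many with little.

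**Figure D1:**
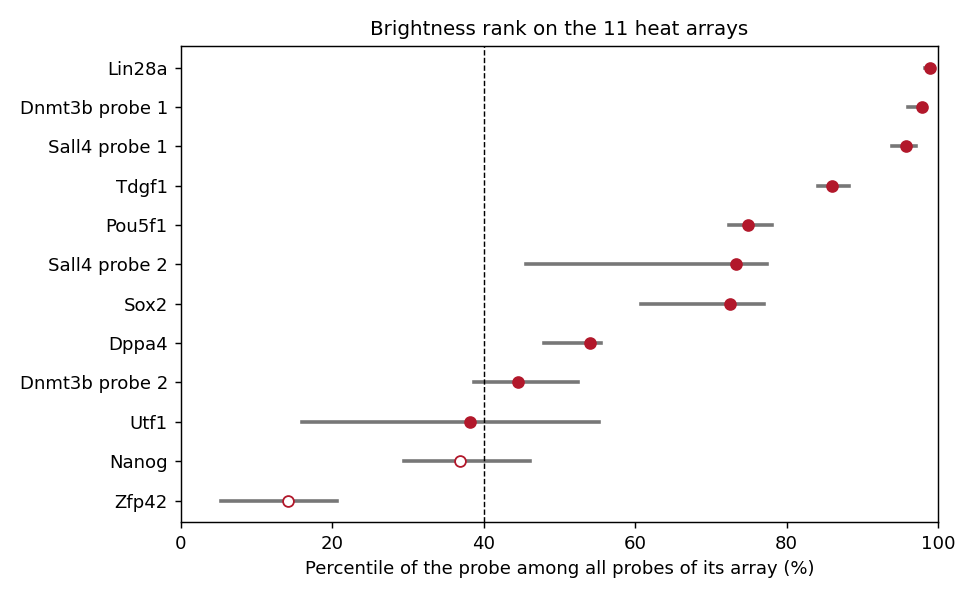
Brightness rank of each of the 12 member probes on the 11 heat arrays: points are medians over arrays, grey bars run from the lowest to the highest array, and the x axis is the percentile among all probes of the array. The dashed line is the 40th percentile used in the filter, and open points are the 2 untested probes, Nanog at 36.9 and Zfp42 at 14.2.

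Pou5f1 encodes Oct4, the POU factor without which no pluripotent inner cell mass forms. Its intensity was 4.58, 5.81 and 3.97 in null heat pools A to C, 4.58, 5.22, 4.71 and 4.74 in heterozygous heat pools A to D, and 3.95, 3.96, 3.85 and 4.22 in wildtype heat pools. It was 6.44, 6.12, 4.79 and 5.04 in null control pools, 3.79, 4.89, 5.55 and 5.46 in heterozygous control pools, and 4.41, 6.14, 4.8 and 4.52 in wildtype control pools. The wildtype heat pools lay close together and below all 4 wildtype control pools, while in the null and in the heterozygous embryos the baths overlapped.

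Sox2 encodes the partner of Oct4, which also marks the neural plate. Its intensity was 5.36, 2.26 and 1.82 in null heat pools, 5.29, 3.19, 2.42 and 2.66 in heterozygous heat pools, and 4.07, 4.04, 4.73 and 3.86 in wildtype heat pools. It was 3.71, 2.99, 1.95 and 1.64 in null control pools, 3.1, 3.4, 3.5 and 4.69 in heterozygous control pools, and 4.25, 3.24, 3.65 and 3.46 in wildtype control pools. In the hot bath 2 of 3 null pools were below every wildtype pool and null pool A was above every one. In the control bath 3 of 4 null pools were below every wildtype pool and pool A was among them, so the groups overlapped in both baths.

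Nanog encodes the homeodomain factor of the naive epiblast. It averaged 0.692 ± 0.159 in null heat pools (SD, n = 3), 0.658 ± 0.142 in heterozygous heat pools and 0.499 ± 0.0527 in wildtype heat pools (n = 4 each). The control pools averaged 0.647 ± 0.147 in null, 0.715 ± 0.177 in heterozygous and 0.523 ± 0.0944 in wildtype embryos (n = 4 each). The wildtype group was the lowest of its bath both times, and its pools (0.449 to 0.571 in the hot bath, 0.408 to 0.617 in the control bath) overlapped those of the heterozygous group in both baths and of the null group in the control bath. The value of 0.408, in wildtype control pool B, was set by the floor of the array, its 5th percentile. Among the heat pools the null values, 0.59, 0.875 and 0.609, all lay above the wildtype ones. The probe was above its array's 40th percentile on 2 arrays, fewer than the 3 that a test required.

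Lin28a encodes an RNA-binding protein that blocks the maturation of let-7 miRNAs. It was 87.1, 84.5 and 67.4 in null heat pools, 93.1, 86.6, 86 and 82.8 in heterozygous heat pools, and 88.2, 88.5, 90.4 and 105 in wildtype heat pools. In the control bath all 12 pools lay between 81.6 and 89.8. After normalization every null heat pool was below every wildtype heat pool, and null heat pool C was the lowest of the 23 arrays. The values as deposited overlapped, at 80, 87.6 and 75.7 in null and 73.2, 78.1, 74.1 and 92.9 in wildtype heat pools. Wildtype heat pool A was then the lowest array.

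Sall4 encodes a zinc finger factor that works with Oct4 and persists in many embryonic tissues. Its first probe, annotated to a cDNA clone, averaged 45.6 ± 13 in null heat pools (SD, n = 3), 46 ± 4.77 in heterozygous heat pools and 40.7 ± 3.99 in wildtype heat pools (n = 4 each). It averaged 45.1 ± 3.74 in null, 47.2 ± 5.82 in heterozygous and 41.6 ± 9.47 in wildtype control pools (n = 4 each), and the groups overlapped in every pair of genotypes. The second probe, annotated to RefSeq transcripts of the gene, gave another pattern. It was 2.77, 3.4 and 0.84 in null heat pools, 5.05, 5.51, 3.55 and 1.1 in heterozygous heat pools, and 5.17, 4.55, 4.82 and 4.09 in wildtype heat pools. It was 2.17, 1.31, 0.857 and 0.838 in null control pools, 4.87, 4.64, 0.804 and 1.91 in heterozygous control pools, and 5.01, 4.93, 4.35 and 5.14 in wildtype control pools. The wildtype pools were high in both baths, every null pool was below every wildtype pool of its bath, and the heterozygous pools were partly high and partly low.

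Utf1 encodes a chromatin-bound factor of undifferentiated cells. It averaged 0.665 ± 0.331 in null heat pools (SD, n = 3), 0.795 ± 0.385 in heterozygous heat pools and 0.591 ± 0.11 in wildtype heat pools (n = 4 each). It averaged 0.46 ± 0.097 in null control pools (n = 4), 0.498 ± 0.0875 in heterozygous control pools (n = 3, as pool D has no value) and 0.641 ± 0.328 in wildtype control pools (n = 4). In null control pools C and D the value was set by the floor of the array, its 5th percentile. Its SDs reached about the size of the differences, and all 6 groups overlapped.

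Dnmt3b encodes a methyltransferase that sets new DNA methylation in the epiblast. Its first probe was 56.3, 65.5 and 66.4 in null heat pools, against 56.7, 46.8, 47.5 and 46.8 in null control pools. It averaged 61 ± 6.35 in heterozygous heat pools and 57.6 ± 6.85 in heterozygous control pools, and 54.7 ± 7.75 in wildtype heat pools and 57.4 ± 5.73 in wildtype control pools (SD, n = 4 each). Of the 3 null heat pools 2 were above every null control pool, and the third was level with control pool A. The second probe, annotated to an expressed sequence tag, had group means from 0.671 to 0.85, with the lowest in null control pools.

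Tdgf1 encodes Cripto, the co-receptor through which Nodal signals in the epiblast. It was 11, 9.43 and 10.5 in null heat pools, 12.4, 11.2, 14.1 and 10.7 in heterozygous heat pools, and 12.2, 11.2, 11 and 13.1 in wildtype heat pools. It was 13, 12.9, 12.4 and 13.2 in null control pools, 9.96, 9.41, 12.8 and 11.6 in heterozygous control pools, and 9.96, 12.1, 11 and 10.2 in wildtype control pools. The 4 null control pools lay within a narrow band above all wildtype control pools and above all null heat pools.

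Zfp42 encodes Rex1, a marker of naive stem cells, and Dppa4 a chromatin-bound protein of the early embryo. For Zfp42 the deposited values, which need no scaling across missing cells, are given: 0.12 ± 0.0223 in null heat pools (SD, n = 3), 0.168 ± 0.0568 in heterozygous heat pools and 0.215 ± 0.0317 in wildtype heat pools (n = 4 each). Only 1 of the 12 control columns holds a value, 0.267 in heterozygous control pool B. The null heat pools (0.103 to 0.145) and wildtype heat pools (0.175 to 0.24) did not overlap, at the dim end of the arrays. Dppa4 stayed within a narrow range, with group means from 1.14 to 1.31: 1.18 ± 0.119 in null, 1.31 ± 0.0607 in heterozygous and 1.14 ± 0.173 in wildtype heat pools, and 1.29 ± 0.215 in null, 1.16 ± 0.122 in heterozygous and 1.21 ± 0.159 in wildtype control pools (SD, n = 3 in null heat and 4 in the others). With the 6 means put in order of size, no mean differed from the next by more than the larger SD of the groups concerned.

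**Figure D2:**
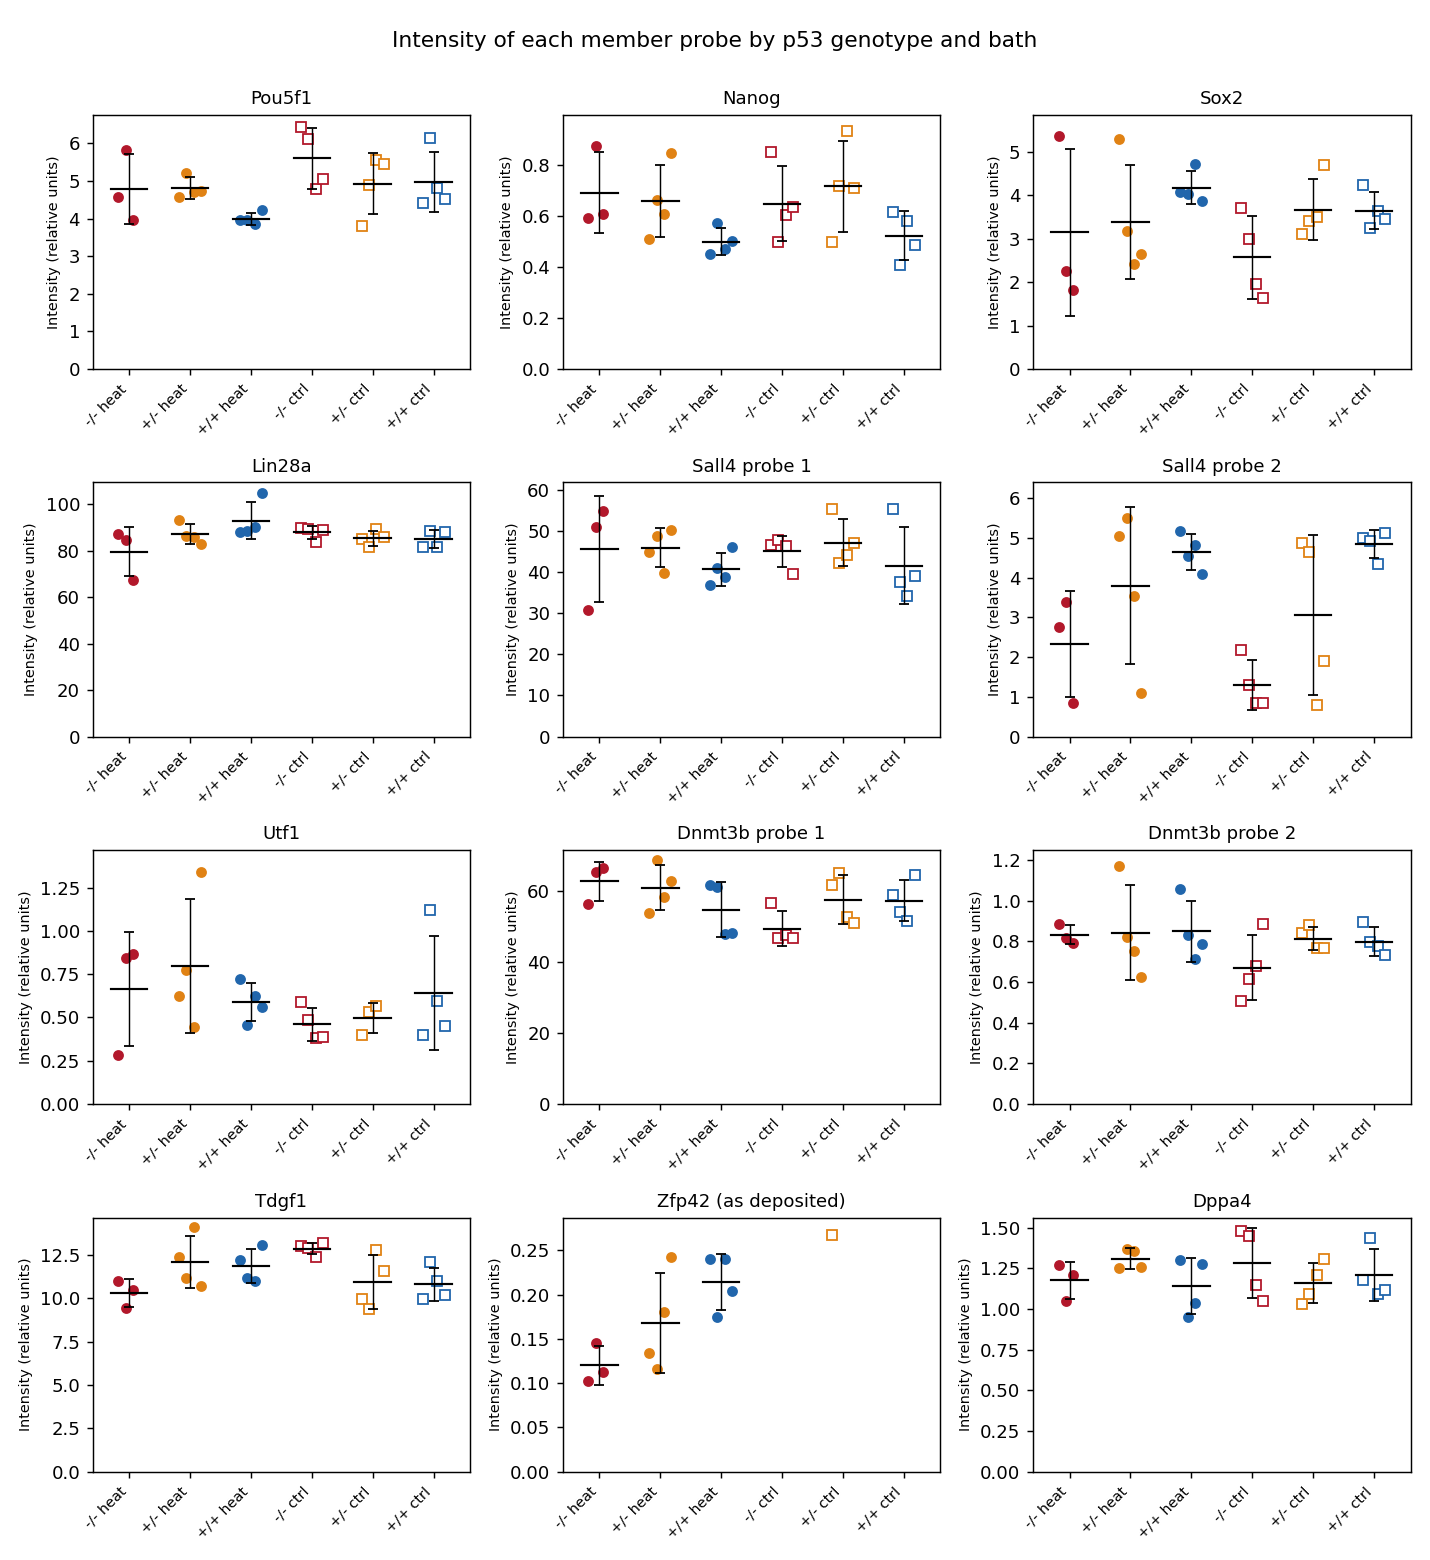
Intensity (y axis, relative units, from 0) of each member probe in the 6 groups, with null, heterozygous and wildtype heat pools left of the control pools: each point is 1 pool, horizontal lines are means and error bars 1 SD. The second Sall4 probe was 0.838 to 2.17 in null control pools and 4.35 to 5.14 in wildtype control pools, while the first Sall4 probe overlapped between all groups; Zfp42 is shown as deposited.

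The hot bath was compared with the control bath to see whether a short heat exposure moved these genes. None of the member probes passed the threshold, a limma adjusted p of 0.05 over the 21979 tested probes, in any genotype. The count was 0 of 10 in null embryos, where 5.53% of all tested probes were called, 0 of 10 in heterozygous embryos (2.31% of all) and 0 of 10 in wildtype embryos (3.08% of all). For the mean over the 3 genotypes it was 0 of 10, and 12.2% of all (5.18% higher and 6.99% lower). At an unadjusted p of 0.05, limma found 2 of 10 in null embryos (25.9% of all), 0 in heterozygous embryos (15.7%), 1 in wildtype embryos (17.8%) and 1 for the mean (25.5%). The median log2 difference over the 10 member probes for that mean was 0.0387, against 0.000985 over all tested probes.

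For Pou5f1 the log2 difference of heat minus control was -0.23 ± 0.15 (SE) in null, -0.02 ± 0.14 in heterozygous and -0.30 ± 0.14 in wildtype embryos (limma adjusted p = 0.31, 0.97 and 0.24). The mean over genotypes was -0.19, with a 95% interval of -0.35 to -0.02 and an adjusted p of 0.14. Tdgf1 and the first Dnmt3b probe had the smallest adjusted p-values, both in null embryos and in opposite directions. Tdgf1 was -0.32 ± 0.11 (adjusted p = 0.083) and Dnmt3b 0.34 ± 0.12 (adjusted p = 0.085). In wildtype embryos the same differences were 0.14 ± 0.10 for Tdgf1 and -0.07 ± 0.11 for Dnmt3b. Lin28a had a mean difference of 0.00 with an interval from -0.10 to 0.10, the narrowest of the members. That difference depended on the processing. Over 35 alternatives it ran from -0.16, outside this interval, to 0.04, with a lowest adjusted p of 0.056. The intervals were wide for the dim or variable probes: -0.28 to 1.01 for the second Sall4 probe, -0.27 to 0.43 for Sox2 and -0.13 to 0.76 for Utf1. Of the 6 p53 targets called with heat in that mean, 3 lay above all 3 intervals. They were Ccng1 (1.06 ± 0.11, limma adjusted p = 2.2e-06), Pmaip1 (1.04 ± 0.15, adjusted p = 8.6e-05) and Cdkn1a (1.28 ± 0.29, adjusted p = 0.0046). Phlda3 (0.67 ± 0.11, adjusted p = 0.00024), Sesn2 (0.52 ± 0.11, adjusted p = 0.0039) and Bbc3 (0.37 ± 0.11, adjusted p = 0.027) had values inside the intervals of the second Sall4 probe and of Utf1. Bbc3 was also inside that of Sox2. Nanog, fitted with no filter on brightness, had a mean difference of -0.02 ± 0.12 (adjusted p = 0.94).

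With the highest value of each array as a covariate, 4 of the counted differences passed. They were the mean over genotypes of the second Sall4 probe (1.0, limma adjusted p = 0.0064) and of the first Dnmt3b probe (0.20, adjusted p = 0.037), and in null embryos the first Dnmt3b probe (0.38, adjusted p = 0.017) and Tdgf1 (-0.35, adjusted p = 0.018). The same covariate raised the calls among all probes to 5932, against 2676 without it, for the mean over genotypes.

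Genotypes were compared within each bath and as the mean of both baths. The second Sall4 probe was the only member probe called. It was lower in null than in wildtype embryos of the control bath, with a log2 difference of -2.02 ± 0.52 (limma adjusted p = 0.024), and in the mean of both baths, with -1.62 ± 0.38 (adjusted p = 0.026). In the heat bath the difference was -1.22 ± 0.56 (adjusted p = 0.23). This makes 1 of 10 member probes in the control bath (8.36% of all tested probes were called, 3.68% higher and 4.69% lower), 1 of 10 in the mean (5.76%, with 2.19% higher and 3.57% lower) and 0 of 10 in the heat bath (0.56%). The count at an unadjusted p of 0.05 was 2 in the control bath (26.1% of all), 3 in the mean (24.3%) and 2 in the heat bath (20.4%).

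Heterozygous and wildtype embryos differed at 0 of 10 member probes in the control bath (0.00455% of all), 0 of 10 in the heat bath (0.141%) and 0 of 10 in the mean (0.0136%). Null and heterozygous embryos differed at 0 of 10 in the control bath (0.0455%), 0 of 10 in the heat bath (0.00455%) and 0 of 10 in the mean (0.0182%). At an unadjusted p of 0.05 limma found 1 member probe for null against heterozygous in the control bath (18.2% of all), 1 in the mean (7.84%) and 0 in the heat bath (4.51%). For heterozygous against wildtype it found 0 in the control bath (5.92% of all), 0 in the mean (11.3%) and 0 in the heat bath (11.7%). For the second Sall4 probe the heterozygous embryos lay between the others, at -0.76 ± 0.37 against wildtype (adjusted p = 0.44) in the mean of both baths, and null against heterozygous was -0.86 ± 0.38 (adjusted p = 0.61).

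**Figure D3:**
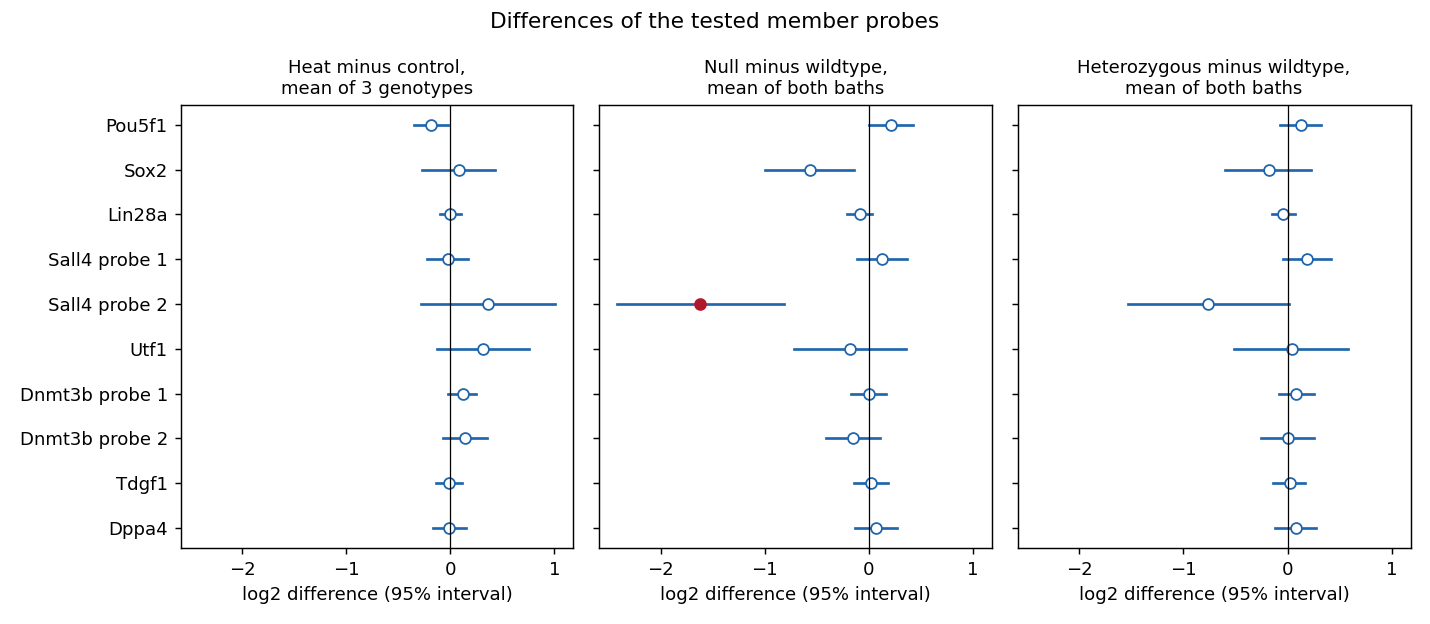
Log2 differences (x axis) of the 10 tested member probes with 95% intervals, for heat minus control, null minus wildtype and heterozygous minus wildtype. The filled point is the only call in these 3 comparisons, the second Sall4 probe at -1.62 in null minus wildtype embryos; the first Sall4 probe was at 0.13.

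The first Sall4 probe did not show this difference. It was 0.14 ± 0.16 in null against wildtype control pools (limma adjusted p = 0.61), with an interval of -0.19 to 0.46, and 0.13 ± 0.12 in the mean of both baths (adjusted p = 0.52). Over the 23 arrays the log2 values of both probes had a Pearson correlation of -0.23, and -0.09 after group means were removed. The bright probe and the dim probe of Sall4 therefore gave different answers, and a direction for the gene as a whole cannot be given.

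The second Sall4 probe moved with a difference between arrays that crosses the groups. Heterozygous control pools C and D stood apart from pools A and B, and each array was scored along that difference over all probes but those of the member genes. The score, in SD units, ran from -1.25 to 0.869 in null heat pools and from -0.887 to 0.187 in wildtype heat pools, and from 0.717 to 1.78 in null control pools against -1.25 to -0.191 in wildtype control pools. The correlation of the second Sall4 probe with the score was -0.85, also with the heterozygous control pools left out, and that of the first probe was 0.06 (n = 23 arrays, which share the normalization). Among the other members the first Dnmt3b probe had -0.60 (-0.53 with the heterozygous control pools left out), the second Dnmt3b probe -0.45 (-0.47), Tdgf1 0.63 (0.51) and Sox2 -0.36 (-0.58). In the control bath the scores of null and wildtype pools did not overlap, so score and genotype cannot be told apart there. With the score as a covariate, chosen after seeing the data, null against wildtype was -0.62 in the control bath (limma adjusted p = 0.57), -0.90 in the mean (adjusted p = 0.060) and -1.18 in the heat bath (adjusted p = 0.033). In that fit 12 probes of all 21979 were called in the control bath and 147 in the mean, against 1838 and 1267 without the score. In the heat bath it was 1100, against 123 without the score. The genes most like the second Sall4 probe over the 23 arrays, looked up after its values were seen, were Fgd1 and Nfe2l1, both with r = 0.96 (0.95 and 0.97 within groups). What sets the score was not tested.

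**Figure D4:**
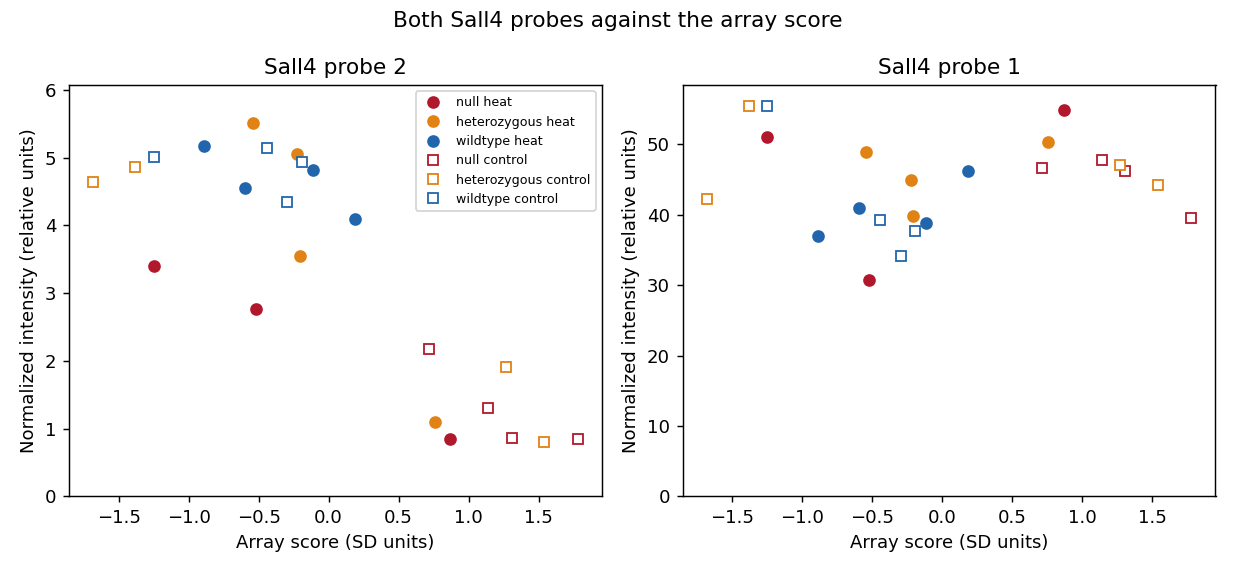
Normalized intensity (y axis, relative units) of the second (left) and first (right) Sall4 probe against the array score (x axis, SD units), 1 point for each of the 23 pools. On the left the intensity is lower on arrays of higher score (r = -0.85), with the null control pools at scores from 0.717 to 1.78; on the right there is no such slope (r = 0.06).

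The control call of the second Sall4 probe was lost when single pools were left out, though its difference stayed near -2.02. In the fits below, the calls among all probes for this comparison fell to between 252 and 840, against 1838. Its limma adjusted p was 0.056, 0.058, 0.051 and 0.061 without wildtype control pool A, B, C or D, and 0.059, 0.071 and 0.081 without null control pool B, C or D, with differences from -2.07 to -1.85. The call in the mean of both baths was lost without null control pool C (0.052) or D (0.059) or null heat pool C (0.12), with differences from -1.54 to -1.31.

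Sox2 was -0.57 in null against wildtype embryos in each bath, with SEs of 0.28 in the control bath and 0.31 in the heat bath (limma adjusted p = 0.20 and 0.29). The mean of both baths was -0.57 ± 0.21 (adjusted p = 0.093), with an interval of -1.0 to -0.14. Without null heat pool A the mean was -0.81 (adjusted p = 0.012) and the heat bath -1.04 (adjusted p = 0.039). Leaving out that pool also raised the calls among all probes, to 3077 in the mean and 1330 in the heat bath. With it they were 1267 and 123. Of 15 other tested neural plate markers, 1 rose and 1 fell in null embryos in the mean of both baths (2.19% and 3.57% of all tested probes). Pax6, an eye and forebrain regulator, was higher (0.53 ± 0.10, adjusted p = 0.014) and Pax3 lower (-0.32 ± 0.09, adjusted p = 0.042). Among those not called, Sox3 was 0.42 ± 0.14 (adjusted p = 0.075) and Sox1 -0.11 ± 0.09 (adjusted p = 0.50).

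Pou5f1 was 0.21 ± 0.10 in null against wildtype embryos in the mean of both baths (limma adjusted p = 0.20). Lin28a was -0.23 ± 0.08 in the heat bath (adjusted p = 0.16) and 0.05 ± 0.08 in the control bath (adjusted p = 0.71). Over 35 alternatives its heat bath difference ran from -0.30 to 0.03. Tdgf1 was 0.25 ± 0.10 in the control bath (adjusted p = 0.13) and -0.21 ± 0.11 in the heat bath (adjusted p = 0.29). The control difference of Tdgf1 passed when only the arrays compared were fitted (0.25, adjusted p = 0.041) and with array weights (0.24, adjusted p = 0.026). With those weights the first Dnmt3b probe passed as well, at -0.26 (adjusted p = 0.031), against -0.21 ± 0.11 without (adjusted p = 0.23). Over all probes, null against wildtype in the control bath had 4635 calls with only the arrays compared. It had 6082 with array weights, against 1838 in the main fit. For Dppa4 the mean difference was 0.07, with an interval of -0.13 to 0.27.

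Nanog had values on all 23 arrays and could be fitted once the brightness filter was dropped. Null against wildtype was then 0.38 ± 0.15 in the mean of both baths (unadjusted p = 0.017, limma adjusted p = 0.12), and heterozygous against wildtype 0.41 ± 0.14 (unadjusted p = 0.0082, adjusted p = 0.30). Null and heterozygous embryos were nearly level, at -0.03 ± 0.15 (adjusted p = 0.98). These values sit below the 40th percentile of most arrays, where the signal is low.

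The response to heat was compared between genotypes. Of the 10 member probes 0 passed for null minus wildtype (1.01% of all called), 0 for heterozygous minus wildtype (0% of all) and 0 for null minus heterozygous (0.0227%). The counts by limma at an unadjusted p of 0.05 were 3 for null minus wildtype (22.1% of all), 0 for heterozygous minus wildtype (6.02%) and 1 for null minus heterozygous (14.4%). The 3 were Tdgf1 at -0.46 ± 0.15 (adjusted p = 0.12), Lin28a at -0.28 ± 0.11 (adjusted p = 0.17) and the first Dnmt3b probe at 0.42 ± 0.16 (adjusted p = 0.16).

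The 11 heat arrays have few missing cells and were also fitted alone, over 22767 probes. Of the 10 member probes 0 passed for null against wildtype (0.0791% of all), 0 for heterozygous against wildtype (0.00439%) and 0 for null against heterozygous (0%). Without the brightness filter, Zfp42 could be compared here: it was -0.75 ± 0.30 in null against wildtype heat pools (unadjusted p = 0.028, limma adjusted p = 0.39), and Nanog was 0.55 ± 0.22 (unadjusted p = 0.028, adjusted p = 0.39). The pair thus pointed in opposite directions, and neither passed.

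Among themselves the members did not vary as a block. Over the 23 arrays Pou5f1 and Dppa4 had r = 0.54 (0.52 after group means were removed), Tdgf1 and Dppa4 0.53 (0.55), and Sox2 and the second Sall4 probe 0.58 (0.40). The first Dnmt3b probe and Tdgf1 ran against each other, with -0.61 (-0.54). Pou5f1 and Sox2, partners in stem cells, had -0.14 (0.23). All points share the normalization of their arrays. The variation over arrays differed as well: the SD of the log2 values within groups was 0.0987 for Lin28a, 0.141 for Tdgf1 and 0.16 for the first Dnmt3b probe, and 0.443 for Sox2, 0.557 for Utf1 and 0.83 for the second Sall4 probe.

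The genes most like each member were picked as the highest correlations among all tested genes with a name and a value on every array, so a high r comes with the search. Sox2 was most like Cald1, an actin-binding protein gene, at 0.92 (0.95 within groups) and Gja1, a gap junction gene, at 0.85 (0.86). Pou5f1 was most like Cdc37, a co-chaperone gene, at 0.75, and Gpr162 at 0.70. The first Sall4 probe was most like Dlst, a citric acid cycle gene, at 0.81 and Nog, which encodes the BMP antagonist noggin, at 0.80. Lin28a was most like Paqr5 and Rabep2, both at 0.79, and the first Dnmt3b probe most like Stard5 and Pmm2, both at 0.89. Tdgf1 was most like Ppp1r1b (0.88) and 9630015K15Rik (0.87), Utf1 like Pou2af1 (0.69) and Furin (0.66, 22 arrays), and Dppa4 like Gm15517 (0.70) and Csnk1g1 (0.68).

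Other genes of the network were read beside the members, each by its brightest probe. The shares to read the counts against, over all tested probes, are 5.18% higher and 6.99% lower with heat in the mean over genotypes, and 2.19% higher and 3.57% lower in null against wildtype embryos in the mean of both baths. The latter, 1267 calls, hung on single pools: 40 were left without null heat pool C, and 3077 arose without null heat pool A. With the array score as a covariate 147 were left. Calls of list genes are from the main fit alone. Single baths and genotypes gave further calls on these lists, of which only some are given. Of 24 tested genes of the wider pluripotency network, 1 rose with heat in the mean over genotypes: Eras, which encodes a Ras protein of stem cells, at 0.34 ± 0.08 (limma adjusted p = 0.0048). In null against wildtype embryos, in the mean of both baths, 2 rose and 1 fell: Dppa5a (0.43 ± 0.12, adjusted p = 0.042) and Eras (0.35 ± 0.10, adjusted p = 0.041) were higher, and Zfp281, a zinc finger repressor gene, was lower (-0.34 ± 0.09, adjusted p = 0.035). The list medians were -0.0234 and 0.0811, against 0.000985 and 0.0231 over all tested probes. Fgf4 and Dppa2, at percentiles of 20.6 and 18.7 on heat arrays, had 0 control values, as Zfp42 nearly did. Of 16 tested genes of the primed epiblast 0 passed in either of these comparisons, with list medians of 0.00123 and 0.0749. In single baths and genotypes Fgf5 was lower with heat in null embryos (-0.38 ± 0.11, adjusted p = 0.043), and in null against wildtype control pools 1 of the 16 rose and 1 fell (3.68% of all probes higher and 4.69% lower). Fgf5 was higher there (0.32 ± 0.10, adjusted p = 0.050, below the threshold before rounding) and Otx2 lower (-0.95 ± 0.27, adjusted p = 0.034).

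Of 14 tested genes around Lin28a and let-7, 1 rose and 1 fell with heat in the mean over genotypes. Lin28b, the paralogue of Lin28a, was higher (0.22 ± 0.07, limma adjusted p = 0.030), and Dis3l2, an exonuclease gene whose product degrades uridylated let-7 precursors, was lower (-0.42 ± 0.10, adjusted p = 0.0092). In null embryos 1 fell, Hmga2, a let-7 target (-0.82 ± 0.23, adjusted p = 0.041), and 0 rose. Of 12 tested genes whose products act on the Pou5f1 promoter or its chromatin, 2 fell with heat and 0 rose: Nr6a1 (-0.20 ± 0.06, adjusted p = 0.034) and Nr2f1 (-0.40 ± 0.09, adjusted p = 0.0045), both nuclear receptor genes. Of these 12, 0 passed between null and wildtype embryos in the mean of both baths. In the control bath 1 fell, Cbx3 (-0.89 ± 0.21, adjusted p = 0.020), as did 4.69% of all tested probes. The list medians were -0.0387 with heat and 0.0714 in null embryos.

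Primordial germ cells keep Pou5f1, so their markers were read as well. Of 10 tested germ cell genes 2 rose with heat, against 5.18% of all tested probes: Ifitm3 (0.32 ± 0.06, limma adjusted p = 0.00083), which many other cells express, and Ddx4 (0.29 ± 0.07, adjusted p = 0.0056), at a percentile of 54.5 on heat arrays. Ifitm3 fell in null embryos (-0.33 ± 0.07, adjusted p = 0.022), as did 3.57% of all tested probes. The mean level of the list, centred on all arrays, ran from -0.0889 to 0.0903 in null, 0.0824 to 0.116 in heterozygous and -0.022 to 0.143 in wildtype heat pools. It ran from -0.0584 to -0.0282 in null, -0.062 to 0.0275 in heterozygous and -0.101 to -0.00789 in wildtype control pools. Dppa3, a defining marker, was at a percentile of 29.1 and untested, and Dazl had no value used here. The part of germ cells in the level of Pou5f1 was not tested.

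Tissues in which Sox2 or Pou5f1 may persist gave counts in both directions, to be read against 5.18% of all tested probes higher and 6.99% lower with heat. Of 15 tested neural plate genes 1 rose with heat, Msi1 (0.34 ± 0.08, limma adjusted p = 0.0054), and 3 fell, Sox11 (-0.29 ± 0.07, adjusted p = 0.0074), Fabp7 (-0.34 ± 0.09, adjusted p = 0.014) and Zic1 (-0.38 ± 0.10, adjusted p = 0.020). In null embryos, where 2.19% of all tested probes rose and 3.57% fell, Pax6 rose and Pax3 fell (-0.32 ± 0.09, adjusted p = 0.042). Of 16 tested tail bud genes 1 rose with heat, Cyp26a1, which degrades retinoic acid (0.37 ± 0.07, adjusted p = 0.0011), and 4 fell, against the 6.99% of all tested probes that fell: Mixl1 (-0.41 ± 0.10, adjusted p = 0.0095), Tbx6 (-0.29 ± 0.07, adjusted p = 0.0075), Wnt3a (-0.25 ± 0.06, adjusted p = 0.0072) and Msgn1 (-0.23 ± 0.07, adjusted p = 0.048). In null embryos 0 of the 16 passed in the mean of both baths. In null against wildtype control pools 1 rose and 1 fell, against 3.68% and 4.69% of all tested probes. They were Cdx1 (0.50 ± 0.13, adjusted p = 0.022) and Hoxb9 (-1.15 ± 0.33, adjusted p = 0.037). Of 16 tested yolk sac genes 0 passed with heat and 1 rose in null embryos, Foxa3 (0.61 ± 0.15, adjusted p = 0.033). Of 7 tested trophoblast genes 1 rose with heat, Peg10 (0.39 ± 0.07, adjusted p = 0.0011), and 1 fell in null embryos, Krt8 (-1.58 ± 0.43, adjusted p = 0.039), a keratin also found in other epithelia. Of 8 tested genes of heart, blood, somite and vessel 1 fell with heat, Twist1 (-0.24 ± 0.07, adjusted p = 0.026), and 1 rose in null embryos, Meox1 (0.50 ± 0.12, adjusted p = 0.029). Of 9 tested p53 targets 6 rose with heat and 5 fell in null embryos. The part of these tissues in the members' values was not tested.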

How the data were processed

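The deposited values are linear intensities, 1 per probe and array. Per the labels' protocols, biotin-labelled cRNA of total RNA from each pool was prepared for CodeLink arrays. Which scanner, background step, normalization and spot filter the authors used is not given in the sources used here. Empty cells and the code -9999 were treated as missing. Within each array, the 5th percentile of the positive values served as a floor. Arrays were quantile-normalized on the 18702 probes measured on all 23 arrays, and other probes were placed by interpolation, since the median of these probes spanned 0.336 on the log2 scale. The tests took probes with 3 or more values per group and an intensity beyond the array's 40th percentile on 3 or more arrays. That percentile lies higher on control arrays, which lack dim cells, and Dppa4, the second Dnmt3b probe and Utf1 passed it on heat arrays alone.

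Gene symbols come from the platform annotation: 21615 probes have 1 symbol (21487 of them matched by gene ID to RefSeq GRCm38.p6), 681 several and 13931 none listed. The model of log2 values used limma 3.58.1 (functions lmFit and eBayes, with a trend over intensity) under R 4.3.3, with 6 group means over all 23 arrays and 16 comparisons. P-values are two-sided and Benjamini-Hochberg adjusted over the 21979 tested probes, with 0.05 as the threshold. Errors of differences are SEs. The heat arrays were also normalized and fitted alone. The fit was tested on simulated data. The labels call the pools biological replicates but name no litters, so p-values measure only the spread between these pools, and the number of arrays limits the precision. Null heat embryos have 3 pools in these data, against 4 in each other group, and 0 value columns were left unused. No scan date or slide is given, so bath and array processing cannot be told apart.

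All probes of the members are named. Of each other list up to 4 genes of smallest adjusted p among those past the threshold are named, and the 2 named genes most correlated with a member's brightest tested probe. Of the p53 targets, all those called with heat in the mean over genotypes are named. The members and lists were chosen with earlier results of these data known. Alternatives changed the normalization, floor, filters, spread, array weights, covariates and replicate block, and left out each pool in turn. The array score as a covariate was chosen after seeing the data. No alternative could be run that asks for fewer values in a group for the heat arrays alone.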

Additional observations from a re-analysis of the deposited data

Results flagged for a closer look

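In 3 of the 56 sets of 4 values, 1 for each member probe and group, a single pool stood apart from the others by Dixon's criterion. Chance flags about 1 in 20 such sets. Lin28a was 105 in wildtype heat pool D, against 88.2 to 90.4 in the other wildtype heat pools. Lin28a was 83.8 in null control pool C, against 88.9 to 89.8 in the other null control pools. The first Dnmt3b probe was 56.7 in null control pool A, against 46.8 to 47.5 in the other null control pools.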

How the results depend on the processing

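Over the comparisons of heat with control, 0 member probes were called, and 4 with the highest value of the array as a covariate. The other 34 alternatives gave 0. Over the genotype pairs 2 were called, against 4 with array weights, 1 with the array score as a covariate and 0 to 4 when each pool was left out in turn. With the replicate block, which treats the letters A to D as shared, there were 3, as Sox2 passed for null against wildtype in the mean of both baths (-0.59, limma adjusted p = 0.036). Calls among all probes for null against wildtype rose too. In the control bath they were 6082 with array weights, against 1838. In the mean of both baths they were 3110 with the block, against 1267. The letters only share a name: over 55 same-letter pairs the correlation of deviations ran from -0.36 to 0.68, with 27 above 0.1, and 7 of 23 arrays were most like an array of their own letter. Differences between heat responses, and genotype pairs on the heat arrays alone, gave 0 under each alternative run. No named difference changed sign past the threshold. For the second Sall4 probe the control difference ran from -2.31 to -0.62 over 35 alternatives (adjusted p from 8.6e-05 to 0.57), and that of the mean of both baths from -1.81 to -0.90 (0.002 to 0.12). The causes were not tested. Of 69 group means of member probes, 9 moved by more than 1 SD with arrays centred on their median and 15 with values as deposited. Missing cells limit Zfp42 most, and dim signal limits Nanog and Utf1.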
